A study of Mus musculus with 18 samples.

Results

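Of 54532 genes in the table, 10 genes of hepatic stellate cells and of the contractile cytoskeleton were followed by gene symbol in the livers of 18 mice: Lrat, Pdgfrb, Vim, Des, Acta2, Myl9, Tagln, Tagln2, Tpm1 and Tpm2. All 10 were found. A mean of at least 1 FPKM (a level scaled to gene length and to a library size) over the 18 mice was needed for a test. This kept 10216 genes, among them 9 of the 10, and Tagln was below it. The mice were male C57BL/6J, 6 weeks old at the start, and no transgene or deletion is named for any group. The 6 normal control mice (NC) had a standard diet. The 6 HFD control mice (HFD) had a high-fat diet for 14 weeks and then saline on the same diet. The 6 SZ-A mice had the same diet and then SZ-A, the alkaloids of mulberry twig, whose dose and route are not given for the sequenced mice. Saline or SZ-A was given for 8 weeks by the deposited description and for 6 weeks by the published methods. The mice were fasted overnight before the livers were taken. For NC6 the title says chow and the diet label says high-fat diet. It was kept in NC, and the calls of the members against NC are given with and without it.

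Stellate cells lie between the liver sinusoid and the hepatocytes. At rest they store vitamin A as retinyl esters, which LRAT makes, and when activated by liver injury they lose these droplets, respond to PDGF through the receptor PDGFRB, and take on actin filaments and the ability to contract. Vimentin (Vim) and desmin (Des) are intermediate filament proteins, and desmin is also abundant in muscle. Alpha smooth muscle actin (Acta2), the regulatory myosin light chain of smooth muscle (Myl9) and transgelin (Tagln) form or bind the contractile filaments of smooth muscle and of activated stellate cells. Tropomyosins (Tpm1, Tpm2) lie along actin filaments, and transgelin-2 (Tagln2) is a relative of transgelin found in many cell types outside muscle. In whole liver, a change in the number of cells of a type and a change in RNA per cell cannot be told apart.

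The members did not move as 1 block. In HFD against NC mice, Tpm2, Tagln2, Pdgfrb, Vim and Lrat rose, while the smooth muscle genes Acta2 and Myl9 and the genes Tpm1 and Des did not pass the test. None of the 9 tested genes passed between SZ-A and HFD mice. Against NC, Tagln2 and Tpm2 were still higher in SZ-A mice. Acta2 and Myl9 varied widely between mice within the NC and SZ-A groups, and the mice with high Acta2 were also high for Myl9.

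Fragments on genes numbered 17163191 to 20493907 per mouse. The quiescent stellate cell markers listed for this work were well measured, with 20 of 23 tested, and Lhx2, Nes and Gfap were below 1 FPKM on average. Per mouse they summed to 143 to 186 FPKM (NC), 188 to 264 FPKM (HFD) and 175 to 236 FPKM (SZ-A). Of the smooth muscle list, 10 of 14 genes were below 1 FPKM, among them the defining genes Myh11, Cnn1 and Actg2, and the list summed to 30.2 to 41.1 FPKM (NC), 32.5 to 36.2 FPKM (HFD) and 31.6 to 44.7 FPKM (SZ-A). All 6 mesothelial markers and all 11 markers of T, B and NK cells were below 1 FPKM on average.

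Short stretches of promoter are shown for the members whose start region holds a CArG box, the site bound by serum response factor in front of many smooth muscle genes. The box has 10 bases: a pair of C, 6 bases that are A or T, and a pair of G. Since it reads the same way on both strands, 1 strand was searched. Windows of 250 bases before the RefSeq start were available for 8 of the 10 members (RefSeq, GRCm38.p6), not for Tagln or Pdgfrb. By the gene bounds of the deposited table these windows lie outside the gene in full for Acta2, Des and Lrat and for 206 of 250 bases for Myl9. For Tagln2, Tpm1 and Tpm2 only 51, 57 and 39 bases lie outside, and for Vim 0, so that their windows are mostly or wholly inside the gene. An exact box was in 1 of the 8, Myl9, against 1.47% of 32851 gene windows. A box with 1 G or C among its inner 6 bases, a form added after the sequences had been seen, was in 3 of the 8 windows (Acta2, Myl9 and Lrat), against 7.24% of all windows, and 0.55% of windows held more than 1 of them, as that of Acta2 did. The stretches below run 5′ to 3′ on the strand of the gene, with the box in capitals.
Acta2, chr19:34255438-34255467, minus strand, box from 84 bases before the start: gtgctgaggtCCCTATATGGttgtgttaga
Acta2, chr19:34255388-34255417, minus strand, box from 34 bases before the start: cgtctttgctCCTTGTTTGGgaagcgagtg
Myl9, chr2:156775293-156775322, plus strand, exact box from 161 bases before the start: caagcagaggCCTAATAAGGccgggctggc
Myl9, chr2:156775355-156775384, plus strand, box from 99 bases before the start: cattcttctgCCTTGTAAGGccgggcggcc
Lrat, chr3:82904178-82904207, minus strand, box from 223 bases before the start: cttctcaccgCCAAGAAAGGtgctccattc
The letters are a description of these windows. Whether serum response factor was bound there was not measured.

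The comparison of HFD with NC mice asked how these genes stood in the liver on a high-fat diet. Of the 9 members tested, 5 were called, all higher, and 4 were not. A call needed a change of more than 1.2-fold and an adjusted p below 0.05 in limma, a linear model fitted across all tested genes. Over all genes tested, 20.2% were called in this comparison and 10.7% were called higher. The median log2 fold change of the 9 was 0.62, against -0.03 over all genes. Without NC6 the same 5 members were called.

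**Figure D1:**
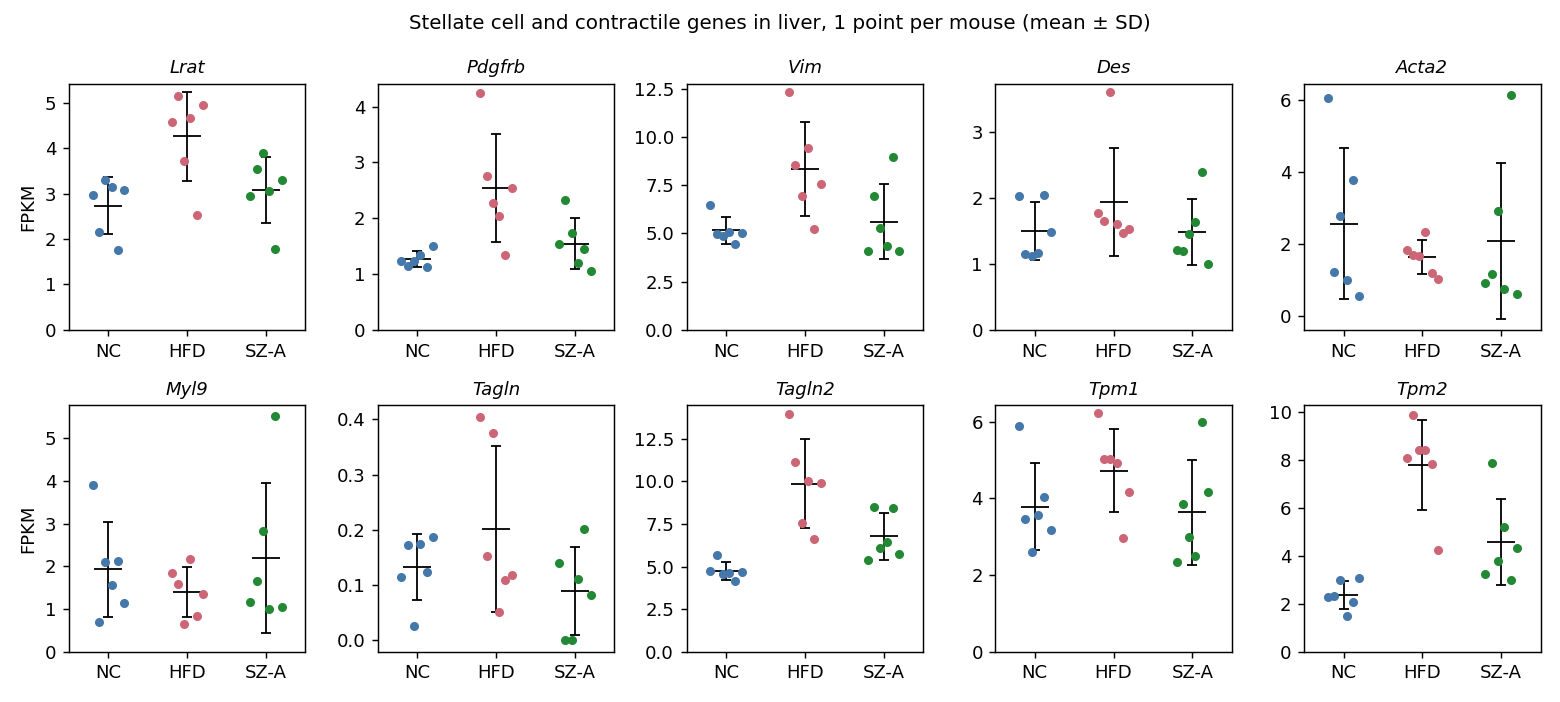
Level of each of the 10 genes in FPKM (y axes, each with its own scale) in the 6 NC, 6 HFD and 6 SZ-A mice (x axes), with a point per mouse, the mean as a bar and the SD as whiskers. For Tagln2 and Tpm2 every HFD mouse lies above every NC mouse, while Acta2 and Myl9 spread widely within NC and SZ-A.

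Tpm2 (ENSMUSG00000028464, chromosome 4, 43514711 to 43523765, minus strand, GRCm38), which encodes beta-tropomyosin, had the largest difference of the members. Its level was 1.48, 2.30 and 3.06 FPKM in the lowest, median and highest NC mouse and 4.26, 8.26 and 9.87 FPKM in the HFD mice. The HFD and NC mice did not overlap, and HFD6 stood apart below the other HFD mice. The fold change was 3.20 (log2 1.68, standard error 0.20, adjusted p = 0.000186 in limma), from 2.36 ± 0.591 to 7.82 ± 1.88 FPKM (SD, n = 6). Without NC6 it was 1.76 on the log2 scale (adjusted p = 0.000271).

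Tagln2 (ENSMUSG00000026547, chromosome 1, 172500047 to 172507380, plus strand), an actin-binding protein, had 4.12, 4.65 and 5.67 FPKM in the lowest, median and highest NC mouse. In HFD mice it had 6.64, 9.95 and 14.0 FPKM. All 6 HFD mice were above all 6 NC mice, and the NC mice were close to each other. The fold change was 2.01 (log2 1.01, standard error 0.15, adjusted p = 0.000761 in limma; also log2 1.01 without NC6).

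Pdgfrb (ENSMUSG00000024620), the receptor for PDGF-B on stellate cells and pericytes, had 1.13, 1.23 and 1.51 FPKM in NC mice and 1.35, 2.41 and 4.25 FPKM in HFD mice, again as lowest, median and highest. In 5 of 6 HFD mice it was above the highest NC mouse, with HFD1 far above the others, and HFD5 lay within the NC range. Its fold change was 1.84 (log2 0.88, standard error 0.20, adjusted p = 0.00877 in limma). It was 0.93 on the log2 scale without NC6 (adjusted p = 0.011) and 0.72 without HFD1, and was called in both cases.

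Vim (ENSMUSG00000026728, chromosome 2, 13573927 to 13582826, plus strand) had 4.45, 5.02 and 6.50 FPKM in NC mice and 5.22, 8.06 and 12.3 FPKM in HFD mice. All HFD mice but HFD5 were above the highest NC mouse, NC1. The fold change was 1.56 (log2 0.64, standard error 0.17, adjusted p = 0.0163 in limma; 0.64 without NC6, adjusted p = 0.028). Vimentin is also made by macrophages and endothelial cells. In HFD mice 4 of 10 tested macrophage markers and 2 of 9 tested endothelial markers were called higher and none lower, where 10.7% of all genes were called higher. The macrophage list summed to 138 to 275 FPKM (NC), 260 to 424 FPKM (HFD) and 229 to 332 FPKM (SZ-A), and the endothelial list to 77.1 to 98.5, 88.1 to 105 and 87.9 to 95.0 FPKM. Their part in the level of Vim was not tested.

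Lrat (ENSMUSG00000028003, chromosome 3, 82892579 to 82903973, minus strand), the retinyl ester-forming enzyme that marks quiescent stellate cells, had 1.75, 3.03 and 3.31 FPKM in NC mice and 2.53, 4.62 and 5.15 FPKM in HFD mice. Every HFD mouse but HFD5 was above all NC mice. The fold change was 1.54 (log2 0.62, standard error 0.19, adjusted p = 0.0354 in limma; 0.66 without NC6, adjusted p = 0.0391). This call was the least firm of the 5. It was lost when NC2, NC5, HFD1, HFD2, HFD4 or HFD6 was left out, each alone, with adjusted p-values of 0.0564 to 0.0766 and the direction kept.

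Acta2 (ENSMUSG00000035783, chromosome 19, 34241090 to 34255336, minus strand), the usual marker of activated stellate cells, did not pass the test. It had 0.565, 2.0 and 6.03 FPKM in the lowest, median and highest NC mouse and 1.04, 1.68 and 2.34 FPKM in HFD mice. The HFD mice all lay inside the NC range. The log2 difference was -0.27 with a standard error of 0.46 (adjusted p = 0.721 in limma), -0.59 without NC6 and 0.056 without NC1, so no direction can be given. In NC mice the gene rested on 19 to 189 fragments, and in HFD mice on 39 to 83.

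Myl9 (ENSMUSG00000067818, chromosome 2, 156775420 to 156781658, plus strand) behaved likewise, with 0.691, 1.84 and 3.91 FPKM in NC and 0.642, 1.46 and 2.16 FPKM in HFD mice. Its log2 difference was -0.36 (standard error 0.37, adjusted p = 0.529 in limma). Tpm1 (ENSMUSG00000032366, chromosome 9, 67022590 to 67049406, minus strand), the other tropomyosin, had 2.60, 3.51 and 5.90 FPKM in NC and 2.96, 4.98 and 6.23 FPKM in HFD mice. Its log2 fold change of 0.32 (standard error 0.19) did not pass the test (adjusted p = 0.258 in limma), and it passed with sample weights (0.51, adjusted p = 0.0383). For both genes the groups overlapped over most of their range.

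Des (ENSMUSG00000026208, chromosome 1, 75360329 to 75368579, plus strand) had 1.12, 1.32 and 2.04 FPKM in NC and 1.47, 1.63 and 3.59 FPKM in HFD mice. HFD3 held the highest value and the next HFD mouse had 1.76 FPKM. The log2 difference in Des was 0.32 (standard error 0.23, adjusted p = 0.337 in limma), and 0.14 without HFD3. HFD3 also had 24.1 FPKM of Acta1, the actin of skeletal muscle, and 2.43 FPKM of Ckm, the creatine kinase of muscle, where the other HFD mice had at most 0.0283 FPKM of Acta1 and 0 of Ckm. The 12 skeletal and cardiac muscle markers summed to 43.2 FPKM in HFD3 against a median of 0.604 FPKM among HFD mice. They summed to 0.719 to 11.4 FPKM (NC) and 0.733 to 1.31 FPKM (SZ-A). NC2 had the highest NC sum, with 4.03 FPKM of Acta1 and 0.847 FPKM of Ckm, and its Des of 1.15 FPKM was below the NC median. The part of the muscle markers in the level of Des was not tested.

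Tagln (ENSMUSG00000032085, chromosome 9, 45929619 to 45936058, minus strand) was close to the limit of detection, with 0 to 17 fragments per mouse. Its level was 0.0274 to 0.187 FPKM (NC), 0.0506 to 0.405 FPKM (HFD) and 0 to 0.201 FPKM (SZ-A), and it was listed at 0 for SZ-A2 and SZ-A3. The difference in mean log2(FPKM + 0.1) was 0.28 between HFD and NC (exact two-sided permutation test over mice, unadjusted p = 0.444), -0.65 between SZ-A and HFD (exact p = 0.126) and -0.37 between SZ-A and NC (exact p = 0.253). In limma with genes down to 0.1 FPKM the adjusted p-values were 0.613, 0.478 and 0.572. Tagln lies across from Pcsk7 on the other strand, which had 6.03 FPKM, and whether fragments were counted by strand is not given in the sources used here, so its low level is uncertain.

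The comparison of SZ-A with HFD mice asked whether SZ-A changed these genes on the same diet. None of the 9 members was called in limma, where 0.147% of all genes were called and 0.0685% were called lower. The paper compared the same groups with a different model at the same thresholds and reported many more genes. By RT-PCR of livers, another measure than the one used here, it also reported Vim significantly lower with SZ-A. A missing call between SZ-A and HFD, here or in the lists below, is therefore not evidence that a gene was unchanged. At an unadjusted p under 0.05 there were 5 of 9 members, the same 5 that were called between HFD and NC, against 14.8% of all genes. With voom weights on the fragments none was called either. The HFD mice are shared by both comparisons, so this is not a second line of evidence.

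**Figure D2:**
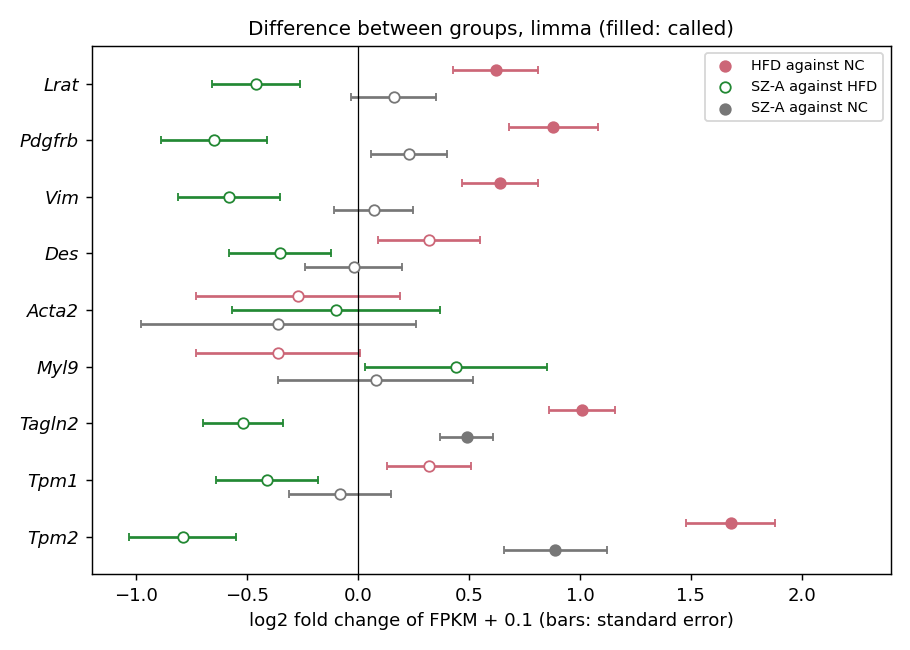
Log2 fold change of FPKM + 0.1 (x axis) for the 9 tested genes (y axis) in HFD against NC, SZ-A against HFD and SZ-A against NC mice, with standard errors as bars and filled points where the gene was called. Filled points stand for 5 genes in HFD against NC, for Tagln2 and Tpm2 in SZ-A against NC, and for no gene in SZ-A against HFD.

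Tpm2 had 3.01, 4.07 and 7.86 FPKM in the lowest, median and highest SZ-A mouse, and its log2 fold change against HFD was -0.79 (standard error 0.24, adjusted p = 0.159 in limma). SZ-A2 lay among the HFD mice and the other SZ-A mice lay below all HFD mice but HFD6. Pdgfrb had 1.05, 1.49 and 2.33 FPKM, a log2 difference of -0.65 (standard error 0.24, adjusted p = 0.228). All 6 SZ-A mice were below the HFD mean of Pdgfrb, and the groups overlapped.

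Vim had 4.09, 4.82 and 8.97 FPKM in SZ-A mice, a log2 difference of -0.58 from HFD (standard error 0.23, adjusted p = 0.257 in limma), with SZ-A5 alone above the HFD mean. Tagln2 had 5.39, 6.28 and 8.50 FPKM, a log2 difference of -0.52 (standard error 0.18, adjusted p = 0.197). Lrat had 1.77, 3.18 and 3.90 FPKM, a log2 difference of -0.46 (standard error 0.20, adjusted p = 0.307). For Tagln2 and Lrat all 6 SZ-A mice were below the HFD mean. None of these differences passed the test over all genes.

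For the other 4 members the SZ-A and HFD mice overlapped widely. Acta2 had 0.619, 1.04 and 6.13 FPKM in SZ-A mice, a log2 difference of -0.10 (standard error 0.47). Myl9 had 0.999, 1.40 and 5.51 FPKM, a log2 difference of 0.44 (standard error 0.41). In both genes 1 mouse, SZ-A5, set the upper end. Tpm1 (2.33, 3.43 and 6.01 FPKM) and Des (0.998, 1.33 and 2.39 FPKM) had log2 differences of -0.41 and -0.35 (standard error 0.23 each), and SZ-A5 was again the highest mouse. Their adjusted p-values in limma were 0.427 to 0.945.

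Against NC mice, 2 of the 9 members were called in SZ-A mice, both higher, where 9.6% of all genes were called and 5.31% were called higher. Tagln2 was 1.41-fold higher (log2 0.49, standard error 0.12, adjusted p = 0.0245 in limma; 0.49 without NC6, adjusted p = 0.041), with 5 of 6 SZ-A mice above every NC mouse. Tpm2 was 1.85-fold higher (log2 0.89, standard error 0.23, adjusted p = 0.0271; 0.97 without NC6, adjusted p = 0.0254), also with 5 of 6 SZ-A mice above every NC mouse. The call of Tpm2 was lost without NC1, NC4, SZ-A4 or SZ-A6, each alone, with adjusted p-values of 0.0501 to 0.0551. Pdgfrb (log2 0.23, standard error 0.17), Lrat (0.16, standard error 0.19) and Vim (0.07, standard error 0.18) did not pass, with adjusted p-values of 0.414, 0.653 and 0.866. In the order of group means, all 5 genes stood lowest in NC, then SZ-A, then HFD. For Vim, Lrat and Pdgfrb the neighbours NC and SZ-A did not differ beyond their spread, and for no gene did SZ-A and HFD differ at the adjusted threshold.

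The 2 tropomyosins changed unequally with the diet. The ratio of Tpm1 to Tpm2 within a mouse, on the log2(FPKM + 0.1) scale, was 0.65 ± 0.62 in NC and -0.70 ± 0.47 in HFD mice (SD, n = 6), a difference of -1.36 (exact two-sided permutation test, p = 0.00433, adjusted p = 0.039 over 9 ratio tests). All 6 HFD mice were below the NC mean. In the group means Tpm2 passed from the lower to the higher of the pair per length of gene, though in NC3 the ratio was already below 0 (-0.187). In SZ-A mice the ratio was -0.32 ± 0.74, and neither the difference from HFD (0.38, exact p = 0.333, adjusted p = 0.5) nor that from NC (-0.97, exact p = 0.0411, adjusted p = 0.123) passed after adjustment. Without SZ-A5 the difference from NC was -1.23 and passed (exact p = 0.0108, adjusted p = 0.0487). With 1 mouse left out, the adjusted p of HFD against NC was above the threshold in 9 of 12 cases (without NC1, NC2, NC4, NC5, NC6, HFD1, HFD2, HFD4 or HFD5, 0.0584 to 0.0974), with differences of -1.52 to -1.22.

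**Figure D3:**
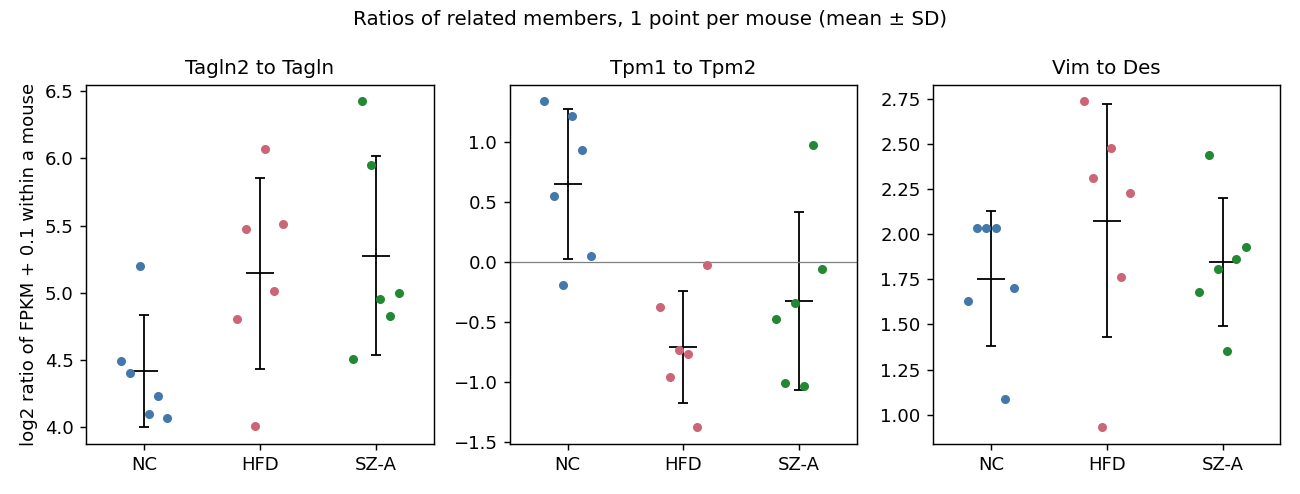
Log2 ratio of FPKM + 0.1 within each mouse (y axis) of Tagln2 to Tagln, Tpm1 to Tpm2 and Vim to Des, for NC, HFD and SZ-A mice (x axis), with a point per mouse, the mean as a bar and the SD as whiskers. The mean of Tpm1 to Tpm2 lies above 0 in NC (0.65) and below 0 in HFD (-0.70) and SZ-A (-0.32).

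For the intermediate filament pair no difference passed. The log2 ratio of Vim to Des had group means of 1.75 ± 0.37 (NC), 2.08 ± 0.65 (HFD) and 1.85 ± 0.35 (SZ-A), with adjusted p-values of 0.5, 0.609 and 0.767 for HFD against NC, SZ-A against HFD and SZ-A against NC (exact permutation tests). Without HFD3, the mouse high in muscle markers, the difference between HFD and NC went from 0.32 to 0.55 (exact p = 0.0325, adjusted p = 0.0731) and still did not pass. The log2 ratio of Tagln2 to Tagln was 4.42 ± 0.42, 5.15 ± 0.71 and 5.28 ± 0.74, with adjusted p-values of 0.131, 0.779 and 0.117 by the same exact tests. Without HFD3 the difference between HFD and NC passed (0.957, exact test, adjusted p = 0.0487), as did that between SZ-A and NC without NC3 (1.02, adjusted p = 0.0195) or without SZ-A1 (1.01, adjusted p = 0.0487). Since Tagln had few fragments, this ratio carries its counting error. It also carries the uncertainty of the Tagln level opposite Pcsk7 described above.

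Per length of gene, the members ranked Tagln2 (7.12 FPKM over the 18 mice), Vim (6.37), Tpm2 (4.92), Tpm1 (4.05), Lrat (3.36), Acta2 (2.09), Myl9 (1.84), Pdgfrb (1.78), Des (1.64) and Tagln (0.142). Some close relatives outside the members were at higher levels. For Tpm3, Tpm4 and Myl12a no difference was called in any comparison in limma, with an unadjusted p above 0.05 in each. The tropomyosins Tpm3 and Tpm4 had 11.9 and 9.89 FPKM, and the non-muscle light chain Myl12a had 8.82 FPKM. The cytoplasmic actins, relatives of Acta2, stood far higher, with group means of 127, 179 and 172 FPKM for Actb and 49.4, 72.7 and 72.8 FPKM for Actg1 (NC, HFD and SZ-A), and Actb was called higher in HFD against NC (log2 0.50, adjusted p = 0.000972 in limma). Myl12b had 0.338 and Tagln3 had 0.0746 FPKM. How fragments that match several of these relatives were counted is not given in the sources used here.

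The spread between mice of 1 group was widest for Acta2 and Myl9 in NC, and for Acta2, Tagln and Myl9 in SZ-A. In HFD it was widest for Tagln (74.1% of the mean), Des (42.3%) and Myl9. The SD of Acta2 was 81.5% of the mean (NC), 28.9% (HFD) and 104% (SZ-A), and that of Myl9 was 58.3%, 41.6% and 80.2%. That of Tagln2 was 10.8%, 26.5% and 20.1%, that of Lrat 23.0%, 22.9% and 23.6%, and that of Pdgfrb 11.1%, 38.2% and 29.4%. Acta2 was highest in NC1 (6.03 FPKM) and SZ-A5 (6.13 FPKM), mice of different groups, and these were also highest in their groups for Myl9, Tpm1 and Vim.

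**Figure D4:**
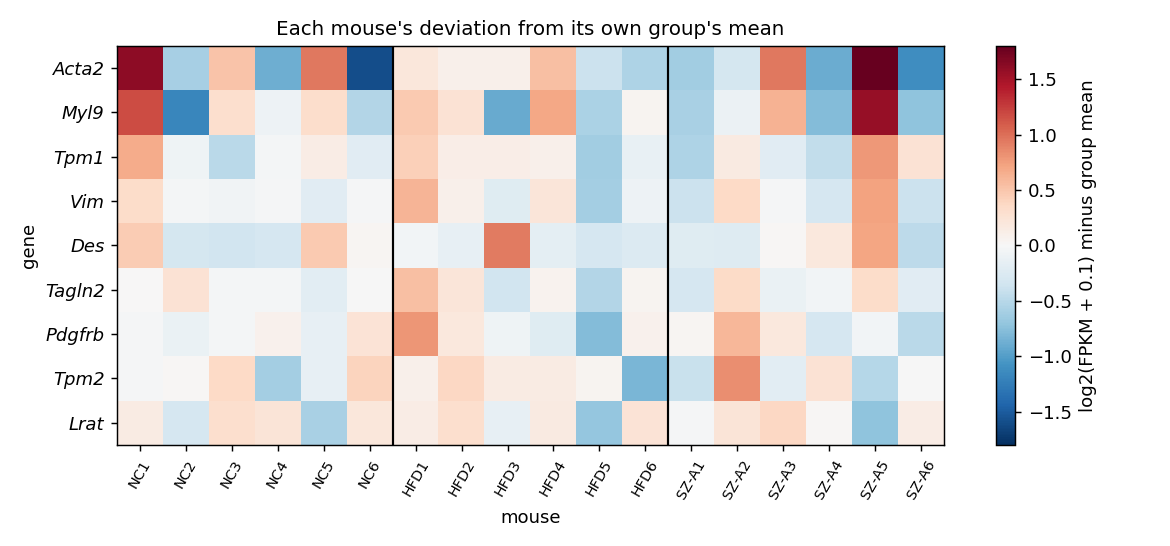
Deviation of each mouse (x axis) from the mean of its own group in log2(FPKM + 0.1) (colour) for the 9 tested genes (y axis), with lines between NC, HFD and SZ-A. NC1 and SZ-A5 are above their group mean for Acta2, Myl9, Tpm1, Vim and Des together, while HFD5 is below its group mean for 8 of 9 genes.

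As a description over the 18 mice, which share the tissue and the sequencing run of a mouse, the deviations of Acta2 and Myl9 from their group means had r = 0.84, and those of Vim and Tagln2 r = 0.86. Tpm1 went with Vim (r = 0.76) and Myl9 (r = 0.60). Lrat did not follow the filament genes, with r = -0.28 to Acta2, -0.41 to Des and 0.11 to Vim, and was nearest to Pdgfrb (r = 0.50). Tpm2 followed none of them, with r from -0.21 (Myl9) to 0.23 (Lrat). SZ-A5, the highest SZ-A mouse for Acta2, Myl9, Tpm1, Vim and Des, was the lowest for Lrat and Tpm2.

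The same mice were highest for 3 smooth muscle genes outside the members, though not for the whole smooth muscle list. Actg2, the actin of visceral smooth muscle, had 1.39 FPKM in NC1 and 1.43 in SZ-A5, and at most 0.457 in the other 16 mice. Myh11, the heavy chain of smooth muscle myosin, had 1.62 and 1.48 FPKM in these mice and at most 0.807 in the others. Cnn1, calponin of smooth muscle, had 0.769 and 0.523 FPKM, and at most 0.219 in the others. Mylk, the myosin light chain kinase, went the other way, with 4.33 FPKM in SZ-A5, the lowest SZ-A mouse, and 5.04 FPKM in NC1, within the range of the other NC mice. Smtn, smoothelin, was highest in NC6 (1.26 FPKM) and SZ-A4 (1.2 FPKM) within NC and SZ-A, and the sum of the list was highest in NC3 among NC mice and in SZ-A5 among SZ-A mice. The summed portal fibroblast markers were also highest in NC1 (5.26 FPKM) and SZ-A5 (6.40 FPKM) within their groups. Their part in the levels of Acta2 and Myl9 was not tested.

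**Figure D5:**
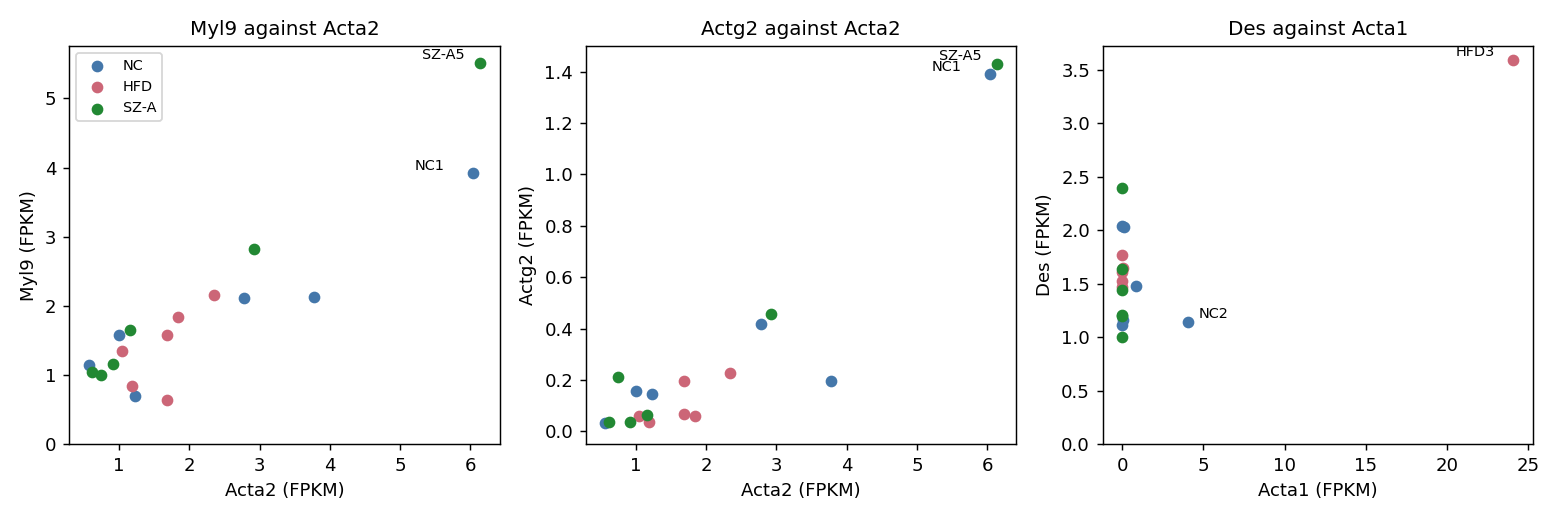
Levels in FPKM of Myl9 against Acta2 (left), of the smooth muscle actin Actg2 against Acta2 (middle) and of Des against the skeletal muscle actin Acta1 (right), with a point per mouse coloured by group. NC1 and SZ-A5 stand at the upper end for Acta2, Myl9 and Actg2, and HFD3 stands alone at the upper end for Acta1 and Des. NC2, next for Acta1, is low for Des.

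By the rule of likeness over all tested genes, Anxa1, an annexin that binds membranes and actin, was closest to Vim (r = 0.96 over the 18 mice, and also 0.96 for the deviations from group means). S100a11 and Tmem43 followed (r = 0.91 each), and within groups the collagen genes Col1a1 and Col1a2 (r = 0.87 each). Myl9, Ipo11 and Adam23 were closest to Acta2 (r = 0.80, 0.80 and 0.75), and within groups Ly6a, Myl9 and Armc5 (r = 0.86, 0.84 and 0.83). Bmp5, Ankfy1 and Reln were closest to Lrat (r = 0.89, 0.88 and 0.87), and within groups Bmp5, Reln and Slc35b4 (r = 0.86, 0.85 and 0.85). Of these, Bmp5 and Reln are on the quiescent stellate cell list.

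The wider lists, chosen with earlier results of these data known, placed the members among other genes of the same pathways. Of 20 tested quiescent stellate cell markers, 10 were called higher and 0 lower in HFD against NC, where 10.7% of all genes were called higher. The median log2 fold change of these markers was 0.43 (-0.03 over all genes). Ngfr, the low-affinity nerve growth factor receptor, had the largest difference (log2 0.79, adjusted p = 0.00928 in limma), followed by the extracellular superoxide dismutase Sod3 (0.75, adjusted p = 0.00313) and the growth factor Gdf2 (0.71, adjusted p = 0.00483). In SZ-A against HFD none was called, where 0.147% of all genes were. At an unadjusted p under 0.05 there was 1 of the 20, against 14.8% of all genes. In SZ-A against NC 4 were called higher, where 5.31% of all genes were. This last count was 7 without NC6, 2 without SZ-A3 or without SZ-A6, 10 with sample weights, 2 with no filter on low values and 0 with a fold change over 2.

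Of 23 tested genes of the non-muscle actomyosin cytoskeleton, 9 were called higher and 2 lower in HFD against NC. Over all genes, 20.2% were called in this comparison and 10.7% were called higher. Capg, an actin-capping protein (log2 1.63, adjusted p = 4.1e-05 in limma), Tuba1a, a tubulin (1.17, adjusted p = 0.00554), and Flna, filamin A (0.89, adjusted p = 0.00582), had the largest differences. Between SZ-A and HFD none of the 23 was called, where 0.147% of all genes were. At an unadjusted p under 0.05 there were 5 of the 23, against 14.8% of all genes. Capg had -1.15 (adjusted p = 0.0591 in limma). Capg was called lower with FPKM rescaled to a common sum, with sample weights, with all 18 mice in 1 fit, and without HFD5, SZ-A2 or SZ-A5, each alone, so its missing call depends on the setting. Flna was called with the first 2 of these. Of the smooth muscle contractile list only 4 genes were tested, and Cald1, caldesmon, was called lower (log2 -0.33, adjusted p = 0.0399), while Mustn1 (0.37) and Mylk (0.22) did not pass. With 1 mouse left out, no gene of this list was called in 10 of 12 fits, all but those without NC5 or HFD3. The serum response factor circuit had 0 of 7 tested genes called in any of the 3 comparisons in limma. Over all genes 20.2% were called in HFD against NC, 0.147% in SZ-A against HFD and 9.6% in SZ-A against NC. A count of 0 among so few genes is near these shares and is no result about the circuit. At an unadjusted p under 0.05 the circuit had 2, 1 and 0 genes in these comparisons, in the same order. The share of all genes under it is given here for SZ-A against HFD alone, 14.8%. The largest differences of the circuit, for HFD against NC, were 0.42 for Fhl1, 0.41 for Csrp1 and -0.31 for Egr1.

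Of the 6 other tested intermediate filament and linker genes, Krt8, a keratin of hepatocytes and bile ducts, was called higher in HFD against NC (log2 0.91, adjusted p = 0.0046 in limma), and Krt23 (0.45) and Lmnb1 (0.33) did not pass. In PDGF and TGF-beta signalling, with 11 genes tested, Tgfb1, the growth factor TGF-beta 1, was called higher (log2 0.60, adjusted p = 0.0404). Ctgf, a matricellular protein, had -0.59 and did not pass, and Pdgfb, Pdgfc and Pdgfd were below 1 FPKM. Around Lrat, the retinoid list had 2 genes called higher and 4 lower of 11, where 20.2% of all genes were called and 10.7% were called higher. Cyp26a1 and Cyp26b1, which break down retinoic acid, fell by 1.87 and 0.97 on the log2 scale, and Aldh1a1, which makes it, rose by 0.99 (adjusted p = 0.0015, 0.0131 and 0.00187). In SZ-A against HFD no gene of these 3 lists was called, where 0.147% of all genes were. At an unadjusted p under 0.05 they had 1 of 6, 0 of 11 and 4 of 11 genes, against 14.8% of all genes.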

How the data were processed

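Poly-A liver RNA of 18 mice was sequenced in paired ends. The authors aligned reads to GRCm38 with HISAT2 2.0.5 and deposited FPKM per gene and mouse, with replicates not pooled; featureCounts 1.5.0-p3 is also in the submitters' processing notes. FPKM times gene length, divided by a value fitted for each mouse, gave whole fragments (within 0.05) for 100% of nonzero values, the very largest left out. Fragments numbered 17163191 to 20493907 per mouse. The library size implied by FPKM was 0.9325 to 1.0248 times these fragments in NC mice. It was 0.9983 to 1.1414 times in HFD and 0.9718 to 1.0468 times in SZ-A mice. Groups follow the sample titles. Each comparison was fitted to log2(FPKM + 0.1) of its 2 groups with limma 3.58.1 (R 4.3.3, intensity trend) over genes with a mean of at least 1 FPKM, with Benjamini-Hochberg adjustment, and the script was tested on simulated data. This scale understates fold changes of low genes. Ratios and Tagln had exact permutation tests over mice. P-values set a difference between groups against the spread between these mice. Promoter windows are from RefSeq. In GENCODE vM21 an Acta2 transcript starts farther upstream, with both Acta2 boxes in its first exon. Named genes are the members, their close relatives, the genes most alike, and of each list up to 3 tested genes with the largest difference between HFD and NC and any called between SZ-A and HFD. A gene of these lists is not reported here. Other genes were named after their values were seen. The members and lists were chosen with earlier results of these data known.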

Additional observations from a re-analysis of the deposited data

Results flagged for a closer look

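Of 30 groups of 6 mice (10 genes in 3 groups), 5 held a mouse whose gap to the next mouse was large against the range of its group on the log2 scale. Chance alone flags about 1 in 20 such groups. Des in HFD3 was 3.59 FPKM, where the next mouse had 1.76. Tpm2 in HFD6 was 4.26 FPKM, below the next at 7.83, and still above every NC mouse. Vim in NC1 was 6.50 FPKM, above the next at 5.06, in a mouse also high for Acta2 and Myl9. Lrat in SZ-A5 was 1.77 FPKM, below the next at 2.95. Tagln in NC3 was 0.0274 FPKM, which is 1 fragment, below the next at 0.114.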

How the results depend on the processing

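Of the 5 calls between HFD and NC, those of Tagln2 and Tpm2 held under all 25 alternatives. With no filter on low values 3 members were called (Tagln2, Tpm2 and Pdgfrb) and with a fold change over 2 there were 2. In SZ-A against NC both of these alternatives left 0, and leaving out 1 mouse left 1 to 2. No alternative gave a call between SZ-A and HFD. The replicate numbers did not pair the mice (correlations of -0.12 to 0.29). With the number as a block the counts of called members stayed at 5, 0 and 2, and the difference in Tpm1 to Tpm2 between HFD and NC stayed at -1.36 but its adjusted p (exact) rose to 0.141. Rescaling to a common sum moved the median of all genes to 0.154 in HFD against NC and to -0.149 in SZ-A against HFD, with the same 5, 0 and 2 members called. A pseudocount of 1 took the ratio of Tagln2 to Tagln past the threshold in HFD against NC (0.814) and SZ-A against NC (0.483; adjusted p = 0.013 for both, exact tests), and turned it to -0.331 in SZ-A against HFD. It turned Acta2 to 0.018 in SZ-A against HFD. Sample weights turned Acta2 to 0.035 in HFD against NC, and Vim to -0.008 and Des to 0.078 in SZ-A against NC. The values that changed sign did not pass a test, and the cause was not tested.

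With each mouse left out, the log2 ratio of Tagln2 to Tagln ran from 0.55 to 0.96 (HFD against NC), -0.10 to 0.32 (SZ-A against HFD) and 0.63 to 1.02 (SZ-A against NC), that of Tpm1 to Tpm2 from -1.52 to -1.22 (HFD against NC), 0.12 to 0.53 (SZ-A against HFD) and -1.23 to -0.83 (SZ-A against NC), and that of Vim to Des from 0.19 to 0.55 (HFD against NC), -0.46 to -0.10 (SZ-A against HFD) and -0.042 to 0.19 (SZ-A against NC). Acta2 ran from -0.59 to 0.056 in HFD against NC and from -0.50 to 0.13 in SZ-A against HFD. In SZ-A against NC, Tpm1 ran from -0.24 to 0.050, Vim from -0.079 to 0.14, Des from -0.17 to 0.071 and Myl9 from -0.23 to 0.32. Acta2, Myl9 and Tagln rested on as few as 19, 14 and 0 fragments in a mouse, which limits their precision.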

Other observations

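Marker lists of the other cells of the liver were read in the same way, in HFD against NC mice by limma. Cd68, a lysosomal protein of macrophages, had group means of 5.77 FPKM (NC), 14.3 FPKM (HFD) and 9.2 FPKM (SZ-A), and was the 1 gene of these lists called between SZ-A and HFD (log2 -0.64, adjusted p = 0.0451). The macrophage markers Cd68 (log2 1.35), Marco (1.27, which did not pass) and Lyz2 (1.05) had the largest differences of their list. Among endothelial markers, Lyve1 (0.91) and Eng (0.30) were called higher and Cdh5 (0.28) did not pass. Of 10 hepatocyte markers 0 were called higher and 4 lower, among them Tat (-1.47), Cps1 (-1.40) and Ass1 (-1.08). Over all genes, 20.2% were called and 10.7% were called higher.

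Of 3 tested adipocyte markers, Cfd, complement factor D, was called higher (log2 4.68, from 2.91 to 52.4 FPKM), Cidec (-0.76) and Lipe (0.15) were not, and Adipoq and Plin1 were below 1 FPKM. The cholangiocyte markers Spp1 (0.74) and Sox9 (-0.43), the portal fibroblast marker Entpd2 (0.64) and the muscle marker Acta1 (-0.36) did not pass.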
